A study of Saccharomyces cerevisiae with 4 samples.

Results

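The genes described here encode the proteins that surround yeast histone deacetylases rather than the enzymes inhibited by CG-1521 themselves. They comprise the non-catalytic subunits of the Rpd3L, Rpd3S, Hda1 and Set3 complexes, the sirtuins with the Sir and Sum1 proteins, and the corepressor pair Tup1 and Cyc8. They were chosen by name, and 31 of 31 were found among 5449 measured genes, each with 1 probeset. The data are transcript levels from Affymetrix yeast arrays, on the log2 scale, for 4 cultures of Saccharomyces cerevisiae strain BY4741. This laboratory strain is haploid, has mating type a and carries deletions at HIS3, LEU2, MET15 and URA3. All cultures grew exponentially in YPD, a rich glucose medium, at a single temperature. The control group was 2 cultures given vehicle, and the CG-1521 group was 2 cultures given the histone deacetylase inhibitor CG-1521 at 50 μM, both for 1 h. The series' design describes the replicates as independent biological ones. The comparison asks which transcripts differ after short exposure of growing cells to the inhibitor.

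Histone deacetylases remove acetyl groups from lysines of histone tails, and they act within complexes that supply the contacts to DNA-binding repressors and to methylated histones. In yeast, Rpd3 sits in a large complex (Rpd3L) that is recruited to promoters and in a small one (Rpd3S) that acts over transcribed genes. Hda1 and Hos2 sit in the Hda1 and Set3 complexes. These enzymes need zinc, whereas the sirtuins Sir2 and Hst1 to Hst4 consume NAD. Sir2 works with Sir3 and Sir4 to silence the spare mating-type cassettes and chromosome ends, Hst1 works with Sum1 and Rfm1 on middle sporulation genes, and Tup1 and Cyc8 form a corepressor used by many DNA-binding proteins.

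The arrays were alike in overall level, with medians over all genes between 9.82 and 9.89. Background, taken as the 95th percentile of 1746 probesets for Schizosaccharomyces pombe, a species not in the samples, lay between 2.42 and 2.45. All 31 genes stood above it on all 4 arrays, with values between 7.23 and 13.32. As a check of the strain label, MET15 (listed as MET17) lay between 1.86 and 1.99 and URA3 between 1.19 and 1.47, below background on each array. LEU2 was below background on the control arrays, at 2.08 and 2.42, and above it on the CG-1521 arrays, at 2.77 and 3.09. HIS3 lay between 10.21 and 10.91, and since its allele in this strain is a partial deletion, the probeset may lie outside the deleted part and checks nothing. The median standard error of a log2 fold change over all genes was 0.12.

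SIR4 and CYC8 were lower with CG-1521, and in the limma fit (Benjamini-Hochberg adjusted over all genes, threshold 0.05) no other gene of the 31 passed. Of the 31 genes 2 fell, 0 rose and 29 did not pass, so 6.45% were called. Among all genes tested the share called was 29.7%, with 12.9% higher and 16.8% lower. At an unadjusted p under 0.05, 9 of the 31 genes passed, 2 of them higher and 7 lower, against 44.7% of all genes. Changes were small, with a median log2 fold change of -0.04 over the 31 genes and -0.04 over all genes. The median absolute change was 0.22 against 0.32, and no gene of the 31 reached an absolute log2 fold change of 1, which 8.46% of all genes did.

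**Figure D1:**
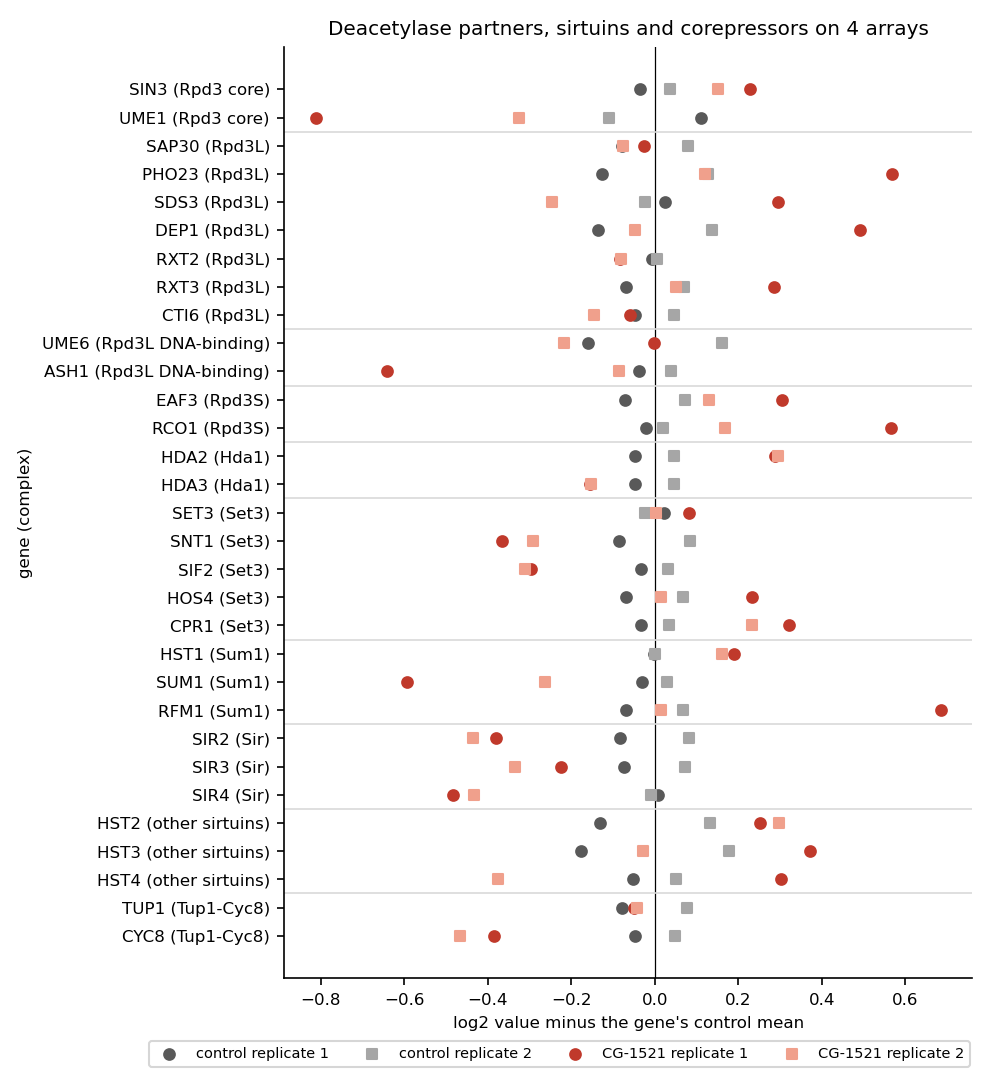
Value of each of the 31 genes on each array minus that gene's control mean (horizontal axis, log2), with genes grouped by complex (vertical axis). Circles are replicate 1 and squares replicate 2, grey for control and red for CG-1521 (paler for replicate 2). Both CG-1521 points lie left of both control points for 12 of the 31 genes, SIR2, SIR3, SIR4 and CYC8 among them. Over all genes the share was 40.9%.

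The genes of the 3 Sir proteins were each lower on both CG-1521 arrays than on both control arrays, which held for no other of the 10 groups into which the genes were sorted. SIR4 encodes the scaffold that holds the silencing complex together. Its log2 values were 8.32 and 8.30 in control replicates 1 and 2 and 7.83 and 7.88 in CG-1521 replicates 1 and 2. The control arrays were nearly equal and both CG-1521 arrays lay well below them. SIR4 fell by 0.46 on the log2 scale (SE 0.10, limma adjusted p = 0.0301), a 1.37-fold lower level, from 8.31 ± 0.01 to 7.85 ± 0.04 (SD, n = 2 each).

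SIR2, the NAD-dependent deacetylase of the complex, stood at 10.52 and 10.69 in the control arrays and at 10.23 and 10.17 in the CG-1521 arrays. The groups did not overlap, and the log2 change was -0.41 (SE 0.11, limma adjusted p = 0.0522), just outside the threshold. SIR3, which binds nucleosomes and spreads the silenced state, stood at 10.39 and 10.54 in control and at 10.24 and 10.13 with CG-1521. Its groups did not overlap either, and the log2 change was -0.28 (SE 0.11, limma adjusted p = 0.124). The median over these 3 genes was -0.41. Of the 31 genes, 12 had both CG-1521 arrays below both control arrays and 7 had both above. Over all genes, 40.9% had both CG-1521 arrays below both control arrays and 72.3% were separated in either direction.

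The change of SIR4 lay between -0.48 and -0.43 in the fits that left out 1 array, but its call ended in 3 of the 4. The call ended without control replicate 1 (limma adjusted p = 0.212), without control replicate 2 (0.187) and without CG-1521 replicate 1 (0.0545), and also with an intensity trend (0.0614) and when all features of the table were fitted together (0.0703), within a range of 0.0301 to 0.212 over the settings tried. Without control replicate 1 or 2, calls over all genes also dropped, to 58 or 50 higher and 18 or 16 lower. SIR2 passed when each array was centred on its gene median (limma adjusted p = 0.0461) and with an intensity trend (0.0300), within a range of 0.0300 to 0.314. The genes next to SIR4 on its chromosome, ADK1 and PCF11, stood at 0.07 and -0.15 and did not pass, whereas PRP11, a splicing factor gene beside SIR2, fell by 0.79 on the log2 scale (limma adjusted p = 0.0146). Of 58 measured neighbours of the 31 genes, 4 rose (6.9%) and 8 fell (13.8%). Over all genes 12.9% rose and 16.8% fell.

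Of 15 genes for factors around the Sir proteins, 3 fell, 0 rose and 12 did not pass, which is 20% called against 29.7% of all genes. The list was not sorted by whether a factor helps or opposes silencing. None was higher at an unadjusted p under 0.05, and 7 were lower. The median log2 fold change was -0.25, 13 of the 15 values were negative, and 11 genes had both CG-1521 arrays below both control arrays. Over all genes 2908 of 5449 values were negative and 40.9% had both CG-1521 arrays below both controls. RIF2, a telomere protein that binds Rap1, fell from 7.87 and 7.78 to 5.97 and 6.23, a log2 change of -1.72 (SE 0.13, limma adjusted p = 0.00745). YKU80, part of the DNA end-binding Ku dimer, fell by 0.51 on the log2 scale (limma adjusted p = 0.0237). ORC1, the origin recognition subunit that is a paralog of SIR3, fell by 0.44 (limma adjusted p = 0.0429). Across all the lists 28 called genes are named, and leaving out control replicate 1 or 2 ended 27 or 26 of these calls, leaving out CG-1521 replicate 1 or 2 ended 7 or 4, and fitting all features together ended 16. SIR1, which helps to start silencing at the mating-type cassettes, stood at -0.18 (limma adjusted p = 0.527).

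None of the remaining sirtuins passed the test, and their log2 fold changes ran from -0.04 for HST4 to 0.28 for HST2. HST1 is the closest relative of SIR2 and the catalytic partner of Sum1, and it also belongs to the Set3 complex. It stood at 12.46 and 12.46 in control and at 12.65 and 12.62 with CG-1521, close together within each group and slightly higher with CG-1521. The log2 change was 0.18 (SE 0.10, limma adjusted p = 0.216). Relative to SIR2 on the same arrays, HST1 was higher with CG-1521 by 0.58, with differences from the pair's control mean of 0.57 and 0.60 in the treated cultures and 0.08 and -0.08 in the controls. An exact two-sided permutation test over 4 arrays gave p = 0.333 (0.5 after Benjamini-Hochberg adjustment over 6 pairs), and 0.333 is the smallest p that the design allows.

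HST2, a mainly cytoplasmic sirtuin, stood at 10.09 and 10.35 in control and at 10.47 and 10.52 with CG-1521, a log2 change of 0.28 (SE 0.13, limma adjusted p = 0.166). HST3 and HST4 deacetylate histone H3 within its core and act in genome stability. HST3 stood at 9.84 and 10.19 in control and at 10.39 and 9.99 with CG-1521. HST4 stood at 9.10 and 9.20 in control and at 9.45 and 8.77 with CG-1521. For both genes the groups overlapped, and for HST4 one CG-1521 array lay above and the other below both control arrays. Their log2 fold changes were 0.17 (95% interval -0.35 to 0.69) and -0.04 (95% interval -0.67 to 0.60), and the difference between them was 0.21 (exact permutation p = 0.667).

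Sirtuins depend on NAD and are inhibited by nicotinamide, and genes of nicotinamide and NAD salvage moved in both directions. Of 6 such genes 2 rose, 1 fell and 3 did not pass, where 12.9% of all genes rose and 16.8% fell. PNC1, the nicotinamidase that removes the sirtuin inhibitor nicotinamide, rose from 11.85 and 11.99 to 13.00 and 12.75, a log2 change of 0.96 (SE 0.13, limma adjusted p = 0.0141). NMA2, an adenylyltransferase of NAD synthesis, rose by 1.20 (SE 0.12, limma adjusted p = 0.00892). QNS1, the NAD synthetase, fell by 0.41 (SE 0.10, limma adjusted p = 0.0384).

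The 3 genes of the Sum1 complex pointed in different directions. SUM1, the DNA-binding repressor of middle sporulation genes, stood at 11.71 and 11.77 in control and at 11.15 and 11.48 with CG-1521. Both CG-1521 arrays lay below both control arrays, and the log2 change was -0.43 (SE 0.14, limma adjusted p = 0.0865). RFM1, which tethers Hst1 to Sum1, stood at 8.79 and 8.93 in control and at 9.55 and 8.88 with CG-1521. Only CG-1521 replicate 1 lay apart, and the log2 change was 0.35 (SE 0.24, limma adjusted p = 0.317).

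Of 10 genes repressed by Sum1, Rfm1 and Hst1, 3 rose, 1 fell and 6 did not pass, which is 40.0% called against 29.7% of all genes. The median was 0.48, with 0.64 on CG-1521 replicate 1 and 0.39 on replicate 2. BNA2, the first enzyme of NAD synthesis from tryptophan, rose from 5.07 and 5.82 to 7.90 and 7.13, a log2 change of 2.07 (SE 0.37, limma adjusted p = 0.0214). BNA6 of the same pathway rose by 0.57 (SE 0.11, limma adjusted p = 0.0230), while BNA1, BNA4 and BNA5 stood between -0.05 and 0.21 and did not pass. NDT80, the activator of middle sporulation genes, rose by 1.12 (limma adjusted p = 0.0423). SPS4, a sporulation gene, fell by 1.32 (limma adjusted p = 0.0167).

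**Figure D2:**
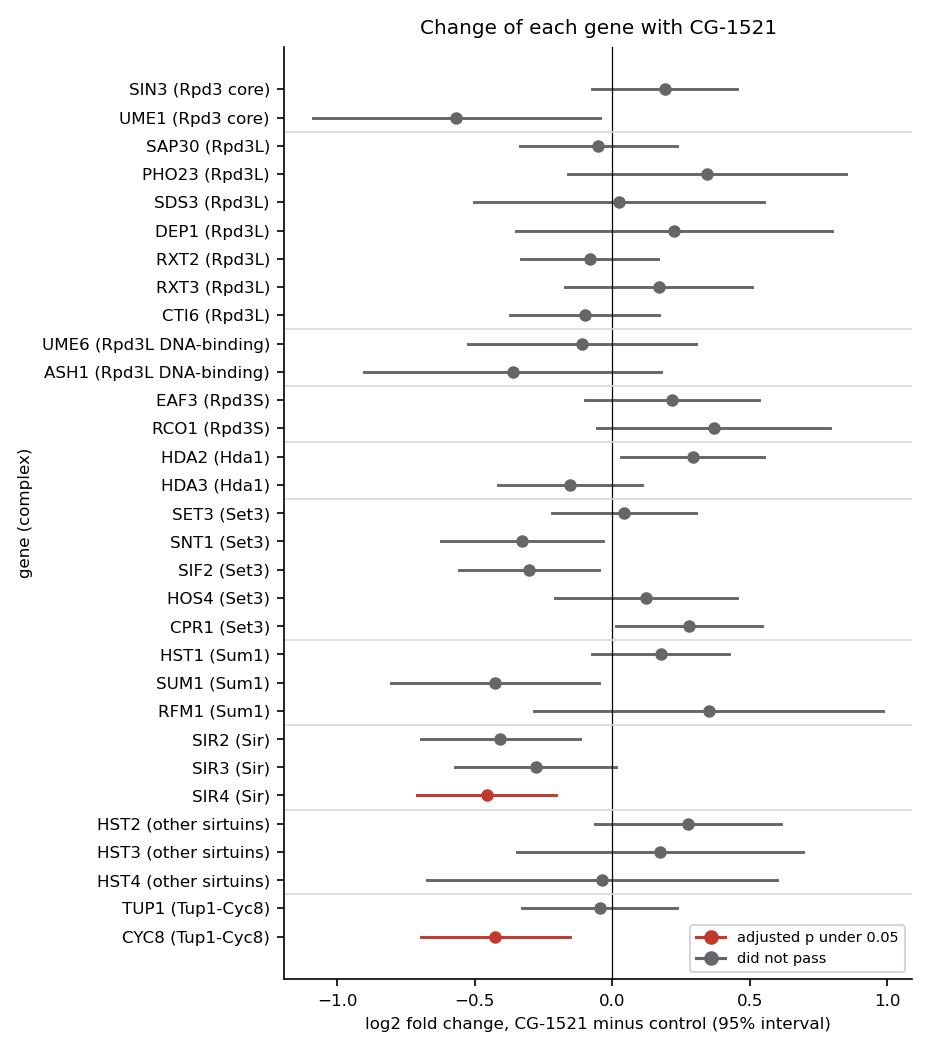
Log2 fold change of each of the 31 genes, CG-1521 minus control, with its 95% interval from limma (horizontal axis), grouped by complex (vertical axis). SIR4 and CYC8 are drawn in red as the genes with an adjusted p under 0.05, and every point lies between -0.57 and 0.37.

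CYC8 fell and its partner TUP1 did not pass. CYC8 encodes the repeat protein that contacts DNA-binding repressors, and it stood at 9.996 and 10.09 in control and at 9.66 and 9.58 with CG-1521. The groups did not overlap, and CYC8 fell by 0.43 on the log2 scale (SE 0.10, limma adjusted p = 0.0407), a 1.34-fold lower level, from 10.04 ± 0.07 to 9.62 ± 0.06 (SD, n = 2 each). TUP1, which binds histone tails and recruits deacetylases, stood at 9.55 and 9.70 in control and at 9.57 and 9.58 with CG-1521. The groups overlapped, with a log2 fold change of -0.05 (95% interval -0.33 to 0.24). The change of TUP1 exceeded that of CYC8 by 0.38, with an exact permutation p = 0.333, again the smallest possible. The change of CYC8 lay between -0.47 and -0.38 in the fits that left out 1 array, and its call ended in each of them, with adjusted p-values of 0.199 and 0.256 without control replicates 1 and 2 and 0.0540 and 0.0618 without CG-1521 replicates 1 and 2. It also ended when all features were fitted together (0.0923), and the settings tried ranged from 0.0311 to 0.256.

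Of 14 genes for DNA-binding proteins that recruit or bind Tup1 and Cyc8, 2 rose, 2 fell and 10 did not pass. The share called was 28.6% against 29.7% of all genes. SUT1, a regulator of sterol uptake genes, fell from 9.59 and 9.81 to 8.27 and 8.62, a log2 change of -1.26 (SE 0.17, limma adjusted p = 0.0127). SFL1, a repressor of flocculation genes, fell by 0.84 (limma adjusted p = 0.0238). NRG2, a glucose-dependent repressor, rose by 0.54 (limma adjusted p = 0.0296). RFX1, the repressor of DNA damage-inducible genes, rose by 0.57 (limma adjusted p = 0.0436). MIG1, the main glucose repressor, stood at 0.01 (SE 0.10, limma adjusted p = 0.967).

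Of 15 measured genes under Tup1 and Cyc8, 1 rose, 3 fell and 11 did not pass, a share of 26.7% called against 29.7% of all genes, with a median of -0.15. GRE2, a stress-induced reductase, rose from 10.45 and 9.81 to 12.28 and 12.40, a log2 change of 2.21 (SE 0.23, limma adjusted p = 0.00935). RNR2 and RNR4, the small subunits of ribonucleotide reductase, fell by 0.87 (limma adjusted p = 0.0110) and 0.60 (limma adjusted p = 0.0299). HEM13, a heme synthesis gene repressed when oxygen is present, fell by 1.82 (limma adjusted p = 0.0165). SUC2, the glucose-repressed invertase, stood at -0.03 (limma adjusted p = 0.837). FLO1 and FLO9, flocculins with near-identical repeats whose values are uncertain for the single gene, stood at -0.17 and -0.15 (limma adjusted p = 0.308 and 0.364) and did not pass.

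Subunits of the Rpd3 complexes gave no call. SIN3, the scaffold of both complexes, stood at 11.60 and 11.67 in control and at 11.87 and 11.79 with CG-1521, a log2 change of 0.19 (SE 0.10, limma adjusted p = 0.210). UME1, the other shared subunit, stood at 8.15 and 7.93 in control and at 7.23 and 7.72 with CG-1521. Its groups did not overlap, CG-1521 replicate 1 lay lowest, and its log2 change of -0.57 (SE 0.20, limma adjusted p = 0.0931) was the most negative of the 31 genes. It passed without CG-1521 replicate 2 (limma adjusted p = 0.0216), within a range of 0.0216 to 0.343 over the settings. SIN3 exceeded UME1 in change by 0.76 (exact permutation p = 0.333, the smallest possible).

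Among 7 subunits found in Rpd3L, 0 were called in limma and 0 passed at an unadjusted p under 0.05, against 29.7% and 44.7% of all genes. They were SAP30 and SDS3, which hold the complex together, PHO23 and CTI6, which carry methyl-histone-binding fingers, and DEP1, RXT2 and RXT3. Their log2 fold changes ran from -0.10 for CTI6 to 0.34 for PHO23, with a median of 0.02. SAP30 stood at 9.64 and 9.80 in control and at 9.69 and 9.64 with CG-1521, RXT3 at 9.18 and 9.32 against 9.53 and 9.30, and CTI6 at 10.78 and 10.87 against 10.76 and 10.68. CTI6 and RXT2 were lower on both CG-1521 arrays than on both controls, and the groups of the other 5 overlapped. Over all genes, 40.9% were lower in this way and 72.3% were separated in either direction. RXT2 varied least, at 10.43 and 10.44 in control and at 10.35 and 10.35 with CG-1521. Its 95% interval was -0.33 to 0.17.

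The DNA-binding proteins of Rpd3L did not pass either. UME6, which brings Rpd3L to early meiotic genes in growing cells, stood at 9.42 and 9.75 in control and at 9.58 and 9.37 with CG-1521. The groups overlapped, with a log2 fold change of -0.11 (95% interval -0.52 to 0.30). ASH1, the daughter-cell repressor of mating-type switching, stood at 11.53 and 11.61 in control and at 10.93 and 11.49 with CG-1521. CG-1521 replicate 1 was well below the controls and replicate 2 just below them, and the log2 change was -0.36 (SE 0.21, limma adjusted p = 0.236).

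Of 8 other repressors that recruit or bind Rpd3L, 2 fell, 0 rose and 6 did not pass, a share of 25% called against 29.7% of all genes, and none was higher at an unadjusted p under 0.05. TOD6, a repressor of ribosome biogenesis genes, fell from 10.34 and 10.34 to 9.44 and 9.68, a log2 change of -0.78 (SE 0.12, limma adjusted p = 0.0176). DOT6, its paralog, stood at 0.12 (limma adjusted p = 0.509). STB6, a Sin3-binding protein, fell by 0.49 (limma adjusted p = 0.0473), a call that ended when the arrays were centred on their gene medians (0.0535) or quantile-normalized over the yeast genes (0.0605).

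Of 15 genes repressed through Ume6, 3 rose, 1 fell and 11 did not pass, a share of 26.7% called against 29.7% of all genes. The median was 0.30, made up of 0.54 on CG-1521 replicate 1 and 0.02 on replicate 2, each against the control mean, so that it was nearly absent on replicate 2. INO1, which makes inositol phosphate, rose from 6.36 and 6.73 to 8.90 and 8.21, a log2 change of 2.01 (SE 0.27, limma adjusted p = 0.0135). SPO13, a meiotic regulator, rose by 1.76 (limma adjusted p = 0.0237). DMC1, the meiotic recombinase, rose by 1.33 (limma adjusted p = 0.0222). MEI4, needed for meiotic DNA breaks, fell by 1.03 (limma adjusted p = 0.0308). IME2, the early meiotic kinase, stood at 0.15 (limma adjusted p = 0.355).

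**Figure D3:**
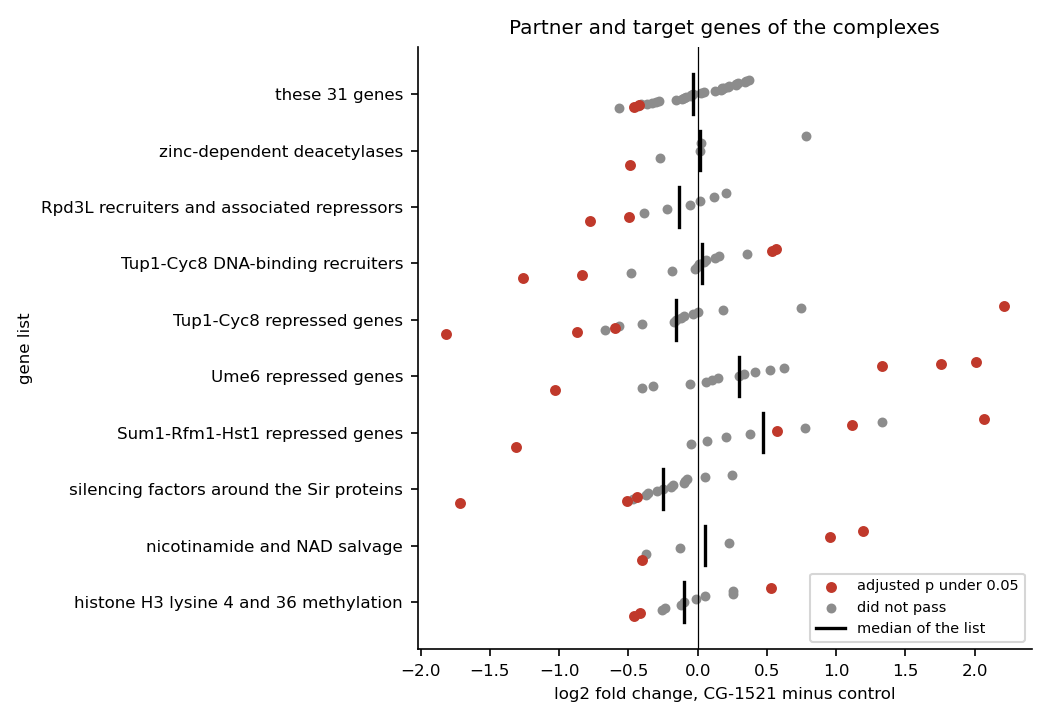
Log2 fold change, CG-1521 minus control (horizontal axis), of the 31 genes in the top row and of the genes in 9 lists of recruiters, enzymes and targets (vertical axis). Points are genes, spread vertically for sight only and red where the adjusted p is under 0.05. The black bar is the list's median, which runs from -0.25 for the factors around the Sir proteins to 0.48 for the genes repressed by Sum1, Rfm1 and Hst1.

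Both genes assigned to the small complex Rpd3S were higher on each CG-1521 array than on each control array, as were 31.4% of all genes, and neither was called. EAF3 carries the chromodomain that reads histone methylation in transcribed genes and is shared with an acetyltransferase complex. It stood at 10.53 and 10.67 in control and at 10.91 and 10.73 with CG-1521, a log2 change of 0.22 (SE 0.12, limma adjusted p = 0.227). RCO1, found in Rpd3S alone, stood at 10.13 and 10.17 in control and at 10.72 and 10.32 with CG-1521, a log2 change of 0.37 (SE 0.16, limma adjusted p = 0.147). RCO1 passed without CG-1521 replicate 2 (limma adjusted p = 0.0243), within a range of 0.0243 to 0.412.

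HDA2 and HDA3, the non-catalytic subunits that Hda1 needs for activity, did not pass. HDA2 stood at 9.78 and 9.87 in control and at 10.12 and 10.12 with CG-1521, a log2 change of 0.29 (SE 0.10, limma adjusted p = 0.0884). HDA3 stood at 10.15 and 10.24 in control and at 10.04 and 10.04 with CG-1521, a log2 change of -0.15 (SE 0.10, limma adjusted p = 0.289). The CG-1521 arrays lay above the controls for HDA2 and below them for HDA3, and over all genes 72.3% were separated in one direction or the other. Relative to HDA3, HDA2 was higher with CG-1521 by 0.45, with differences from the pair's control mean of 0.44 and 0.45 in the treated cultures (exact permutation p = 0.333, 0.5 after adjustment over 6 pairs). HDA1 itself fell by 0.49 (SE 0.13, limma adjusted p = 0.0472), and RPD3, HOS1, HOS2 and HOS3 stood at 0.01, 0.79, -0.27 and 0.03 and did not pass. Of these 5 zinc-dependent enzymes 0 rose and 1 fell in limma, where 12.9% of all genes rose and 16.8% fell. At an unadjusted p under 0.05, 1 enzyme gene, HOS1, was higher. Its limma adjusted p of 0.0522 lay just outside the threshold, and both its CG-1521 arrays lay above both controls.

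In the Set3 complex, which reads methylated histone H3 and holds the deacetylases Hos2 and Hst1, the 5 genes gave 0 calls in limma. Over all genes 29.7% were called. At an unadjusted p under 0.05, 3 passed, against 44.7% of all genes. SNT1 stood at 10.02 and 10.18 in control and at 9.73 and 9.81 with CG-1521, a log2 change of -0.33 (SE 0.11, limma adjusted p = 0.0884). SIF2, a repeat protein that binds Snt1, stood at 9.73 and 9.80 in control and at 9.47 and 9.46 with CG-1521, a log2 change of -0.30 (SE 0.10, limma adjusted p = 0.0764). CPR1, cyclophilin A and the target of cyclosporin, stood at 12.96 and 13.03 in control and at 13.32 and 13.23 with CG-1521, a log2 change of 0.28 (SE 0.10, limma adjusted p = 0.101). The groups of these 3 genes did not overlap, as for 72.3% of all genes, with CPR1 higher and the other genes lower. CPR1 passed with an intensity trend (limma adjusted p = 0.0159), within a range of 0.0159 to 0.446.

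SET3, the subunit that binds methylated histone H3, stood at 10.62 and 10.57 in control and at 10.68 and 10.60 with CG-1521, a log2 fold change of 0.04 (95% interval -0.22 to 0.30). HOS4, an ankyrin repeat subunit, stood at 9.81 and 9.95 in control and at 10.11 and 9.90 with CG-1521, a change of 0.12 (95% interval -0.21 to 0.46). The groups of both genes overlapped. Of 11 genes for the methylation and demethylation of histone H3, the marks read by Pho23, Cti6, Eaf3 and Set3, 1 rose, 2 fell and 8 did not pass, a share of 27.3% called against 29.7% of all genes. All 3 called genes encode subunits of the Set1 methyltransferase complex, as do most genes of the list. SWD3 rose by 0.53 (SE 0.10, limma adjusted p = 0.0260), BRE2 fell by 0.46 (SE 0.10, limma adjusted p = 0.0336) and SDC1 fell by 0.42 (SE 0.11, limma adjusted p = 0.0466). SET1 itself stood at -0.12 (limma adjusted p = 0.370).

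The CG-1521 arrays differed from each other for a part of the 31 genes. The median absolute gap between them was 0.09 over the 31 genes and 0.17 over all genes. For 9 genes, or 29.0%, the gap between these arrays was at or above 0.38, the 80th percentile of the absolute gap over all genes. Replicate 1 was the higher array for 7 of them and the lower for 2. The 7 were HST4 (a gap of 0.68), RFM1 (0.67), SDS3 (0.54), DEP1 (0.54), PHO23 (0.45), HST3 (0.40) and RCO1 (0.40). The 2 were ASH1 (-0.56) and UME1 (-0.49). Whatever the size of the gap, replicate 1 was the higher array for 21 of the 31 genes and for 2775 of all 5449 genes. The direction over all genes with a gap this wide was not counted.

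Within Rpd3L the 7 subunits had a median change of 0.29 on CG-1521 replicate 1 and -0.08 on replicate 2, each against the control mean. PHO23 stood at 10.37 and 10.62 in control and at 11.07 and 10.62 with CG-1521, so that replicate 2 lay at the level of a control array. DEP1 stood at 8.55 and 8.82 in control and at 9.18 and 8.64 with CG-1521, and SDS3 at 8.66 and 8.61 in control and at 8.93 and 8.39 with CG-1521. The gaps of SIR2, SIR3, SIR4 and CYC8 were 0.05, 0.11, -0.05 and 0.08, where the median absolute gap over the 31 genes was 0.09. The genes repressed through Ume6 had a median gap of 0.59 in the same direction as the 7 genes, and those repressed by Sum1, Rfm1 and Hst1 had one of 0.56, against 0.01 over all genes. The part of this gap in the called values of these lists was not tested. RFM1 passed without CG-1521 replicate 2 (limma adjusted p = 0.0218), as did ASH1 (0.0206) and SUM1 (0.0231). SUM1 also passed with an intensity trend (0.0344), and the adjusted p-values over all settings ran up to 0.936 for RFM1, 0.591 for ASH1 and 0.316 for SUM1.

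**Figure D4:**
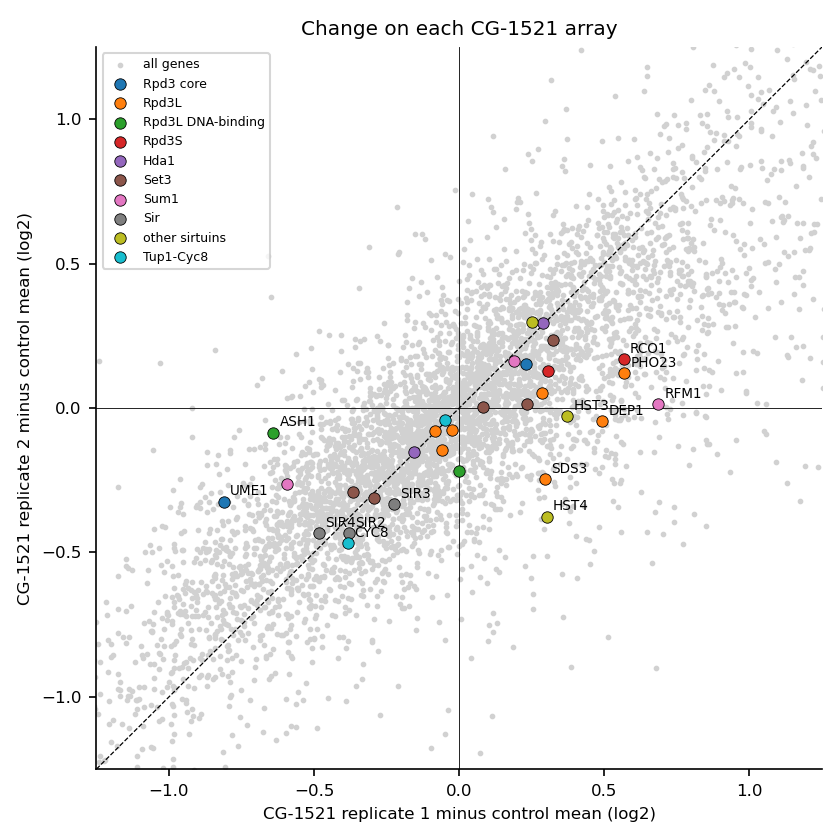
Change from the control mean on CG-1521 replicate 1 (horizontal axis, log2) against that on CG-1521 replicate 2 (vertical axis, log2), with the 31 genes coloured by complex and all genes in grey. Genes on the dashed line changed equally on both arrays, as SIR2, SIR4, CYC8, HDA2 and HDA3, among others, nearly did. RFM1, DEP1, PHO23, HST3, SDS3 and HST4 lie below it. Grey points beyond the axes are not drawn.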

How the data were processed

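The authors deposited log2 values per probeset, 1 column per array, made with Affymetrix Expression Console and RMA per the submitters' processing notes. RMA subtracts background, gives all arrays 1 distribution and condenses probes into probesets, so a shift of all transcripts in 1 direction would not show. Versions and settings are not given in the sources used here. Of 10928 probesets, 5498 could be tied through gene identifiers to R64 annotation entries of S. cerevisiae, and the probeset with the highest mean was kept for 47 genes with several, leaving 5449 genes. The limma package 3.58.1 under R 4.3.3 fitted the group difference (lmFit, eBayes, no other term, 2 residual and 2.69 prior degrees of freedom), with two-sided p-values adjusted by Benjamini-Hochberg over all genes. Precision is limited by how few arrays there are. The fit was first tested on simulated arrays in which 200 of 5449 genes were changed. It recovered 2.2% of changes of 0.5 on the log2 scale, 63.8% of changes of 1 and 95.5% of changes of 2. Here 29.7% of genes were called, which loosens the Benjamini-Hochberg cutoff, so these shares are not the recovery in these data. Of the 31 genes, 30 had an absolute log2 fold change under 0.5, the called SIR4 and CYC8 among them. Failing to pass does not show that a gene was unchanged.

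The 31 genes and the 9 lists (99 of 101 genes measured) were chosen with earlier results of these data known, as were the 6 pairs. All 31 genes are named, and of each list at most 4 called genes with the smallest p and the 5 zinc-dependent deacetylases. Genes of the lists that did not pass, other than these enzymes, were named after their values were seen. Lists have counts and medians, and no test. Alternatives were 12 settings on normalization, filter, prior, block and left-out arrays, plus a crossed pairing added after seeing the data.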

Additional observations from a re-analysis of the deposited data

How the results depend on the processing

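The median log2 fold change over the 31 genes was -0.04 with all 4 arrays. It moved to 0.083 without CG-1521 replicate 2, the upper end of a range from -0.088 over the fits that left out 1 array. With the replicate block, 0 of the 31 genes fell (limma adjusted p = 0.0921 for SIR4 and 0.112 for CYC8), against 2 without it, and 369 and 450 genes of all rose and fell, against 703 and 917. Fitting all features together gave 0 of the 31 lower, and 334 and 444 of all. That setting took all 10928 probesets, with 1746 for S. pombe and 3683 without a gene symbol, and adjusted p over all of them. An intensity trend gave 1 of the 31 higher, CPR1. In the fits without 1 array, 0 to 2 of the 31 were higher and 0 to 4 lower, and over all genes 50 to 1001 rose and 16 to 1133 fell, the low counts coming without a control array, where the lone control is assumed to vary like the CG-1521 arrays. Deviations of same-numbered arrays correlated at -0.26 across genes, and the titles share only a number. With the numbers crossed, 4 of the 31 fell and 0 rose. Leaving out 1 array turned the sign of some uncalled genes, with ranges of -0.13 to 0.028 for SAP30, -0.25 to 0.30 for SDS3, -0.046 to 0.49 for DEP1, -0.27 to 0.050 for UME6, -0.027 to 0.37 for HST3, -0.38 to 0.30 for HST4, -0.12 to 0.032 for TUP1, -0.024 to 0.051 for RPD3 and -0.34 to 0.39 for HOS3. The settings were run for the 31 genes and for 32 list genes, the called ones named and the zinc-dependent enzymes, and none with all 4 arrays turned a sign among these. Of the 28 called list genes that are named, the replicate block ended 14 calls, quantile normalization over the yeast genes 2 and centring 1, and none changed sign. GRE2 alone passed in all 12 settings.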

Other observations

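Loci that the Sir proteins silence were looked at after the other values were seen. HMLALPHA1, the alpha-cell regulator kept silent at the HML cassette, stood at 3.39 and 2.98 in control and at 4.36 and 2.86 with CG-1521. The groups overlapped, and the log2 fold change was 0.43 (SE 0.51, limma adjusted p = 0.551). YFR057W, a gene next to a chromosome end, was not above background in either control array, at 2.41 and 2.20. It stood at 3.49 and 2.52 with CG-1521, a log2 change of 0.70 (SE 0.34, limma adjusted p = 0.175), and did not pass. With the control values raised to background, the CG-1521 mean was 1.48-fold higher, most of it from the array at 3.49. HMRA1 and HMRA2 have the same sequence as the expressed a cassette of this strain, so their probesets cannot separate silent from expressed copies.

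Genes at chromosome ends were also chosen after seeing the data. The 5 outermost protein-coding genes of each end of 16 chromosomes made 160 genes, of which 98 were measured. Of these 98, 26 rose (26.5%) and 10 fell (10.2%), with a median of 0.30. Over all genes the shares were 12.9% and 16.8%. Without the PAU genes, a subtelomeric family, 21 of 90 rose and 10 fell, with a median of 0.26. With 10 genes per end, 55 of 235 rose and 31 fell, with a median of 0.18. No other gene family was taken out, and these counts come from the main fit alone. A link to the Sir proteins was not tested.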
